A study of Rattus norvegicus with 12 samples.

Results

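The unfolded protein response and the amino acid response controlled by ATF4 were followed through 39 named genes of endoplasmic reticulum (ER) stress, ER folding, ER-associated degradation and the ER translocon. A gene entered if the array annotation gave it at least 1 probe set assigned to no other gene. This held for 38 of the 39 genes, out of 14218 such genes on the array, with 56 probe sets among the 20832 that the annotation assigns to a single gene. Ern1, the gene of the ER stress sensor IRE1, was not analysed here. All 12 animals were male Sprague-Dawley rats 8 weeks old, and each array read the mRNA of 1 rat's left hemisphere. MCAO stands for the 7 rats with occlusion of the middle cerebral artery followed by reperfusion, a surgical stroke model, and Sham for the 5 sham-operated rats. The labels place sampling at 24 h after reperfusion and leave the occluded side unstated. The whole hemisphere was used, so any injured tissue in it was read together with uninjured tissue.

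The ER folds secreted and membrane proteins. When unfolded proteins build up in its lumen, the sensors PERK, IRE1 and ATF6 are activated. PERK, like other kinases that respond to amino acid shortage or viral RNA, phosphorylates the translation factor eIF2. General protein synthesis then slows while the transcription factor ATF4 is made, which induces genes of amino acid supply and the transcription factor CHOP (Ddit3). IRE1 splices the Xbp1 transcript, and ATF6 is cut to release a transcription factor. Their targets include ER chaperones, protein disulfide isomerases, degradation factors and parts of the translocon. In brain ischemia this response is known to be engaged in neurons and glia.

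All values are log2 signals as the authors deposited them, and all differences are MCAO minus Sham on that scale. Arrays carry no depth, and their number limits the precision. Levels were not compared between probe sets. The array medians lay between 7.23 and 7.27. Of the 56 probe sets, 14 were near-constant, meaning that their SD over the 12 arrays was below 0.01, and 42 from 35 genes varied. Of all deposited probe sets 62.4% were near-constant. A difference between groups can itself make a probe set count as varying. Near-constant probe sets were counted apart, and their largest absolute difference among the members tested was 0.0014. Trib3, Herpud1 and Sel1l had near-constant probe sets alone, so these data do not describe how they differed. Trib3 encodes a pseudokinase induced by ATF4 and CHOP, and Herpud1 and Sel1l encode parts of the ER degradation machinery.

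Most varying members were higher in MCAO. Of the 42 probe sets, 31 were called higher, 1 was called lower, and 10 did not pass (limma, Benjamini-Hochberg adjusted p below 0.05 over 17250 probe sets). The shares were 73.8% higher and 2.38% lower. Among all 8444 varying probe sets tested, 36.9% were called higher and 30.7% lower. The median difference was 0.31 for the members and 0.06 for all varying probe sets. The differences of the members ran from -0.47 for Psat1 to 0.90 for P4hb. The 7 MCAO values lay above all 5 Sham values for 13 member probe sets, 31.0% of the 42, against 18.2% of all varying probe sets. All 42 varying member probe sets passed the filter on low signals, which required a log2 signal above 6.61 in at least 5 arrays. The third Edem1 probe set passed through its MCAO arrays alone, since its 5 Sham values were below that level, so the filter favoured a higher call. Without it 30 of 41 were higher, 1 was lower and 12 showed MCAO above Sham with no overlap. Among all varying probe sets treated the same way, 35.5% were higher and 31.4% lower. Of these 8247 probe sets, 1381 showed MCAO above Sham with no overlap. Counted by gene, 25 genes had at least 1 varying probe set called higher, 1 was lower and 9 did not pass. That rule favours genes with several probe sets, and the share of all genes by it was not computed. With 1 probe set per gene, the one with the highest mean, the counts were 22 higher and 1 lower of 32 varying genes, where 35.2% of all varying genes were higher and 34.1% lower. That choice picked a near-constant probe set for Canx, Derl1 and Ssr3, although other probe sets of these genes varied, and the values below are therefore given per probe set.

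**Figure D1:**
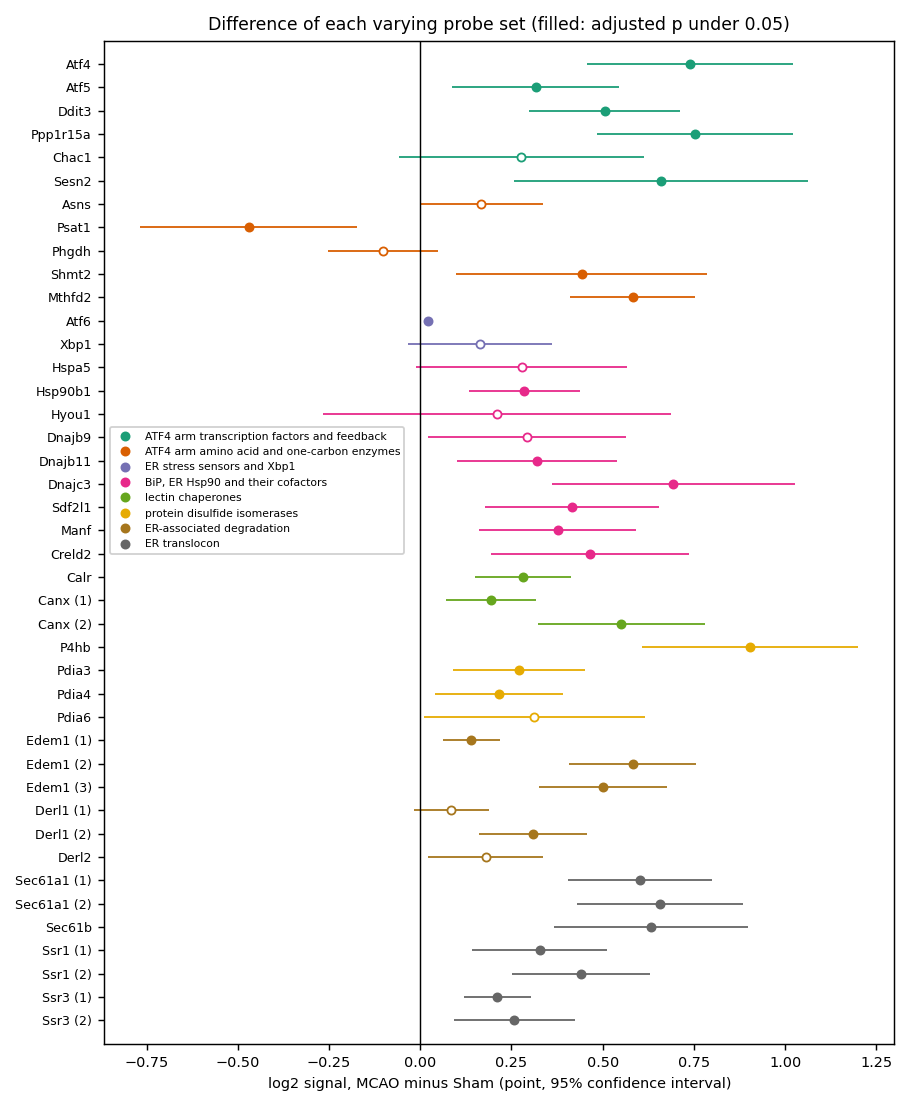
Log2 signal difference, MCAO minus Sham, for the 42 varying probe sets of the members (x axis), with 95% confidence intervals from limma, in rows by gene and coloured by role. Numbers after a gene name count its varying probe sets from the highest to the lowest mean. Filled points had an adjusted p below 0.05, and Psat1 at -0.47 is the filled point left of 0.

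The transcription factors and feedback genes of the ATF4 arm had a median difference of 0.58, and 5 of their 6 varying genes rose. That was 83.3%, against 36.9% of all varying probe sets. Atf4 had a lowest, median and highest signal of 10.92, 11.54 and 11.74 in MCAO, against 10.70, 10.66, 10.69, 10.67 and 10.79 in Sham. Every MCAO rat was above every Sham rat, with MCAO 4 closest to Sham. Atf4 (Entrez Gene 79255) was 1.67-fold higher, with a log2 difference of 0.74 ± 0.13 (SE, n = 7 MCAO and n = 5 Sham, adjusted p = 0.00237 by limma). Ppp1r15a (Entrez Gene 171071), whose product GADD34 directs a phosphatase to eIF2 and so restores translation, had signals of 7.72, 8.16 and 8.55 (lowest, median, highest) in MCAO. Its Sham signals were 7.48, 7.41, 7.43, 7.44 and 7.51. The groups did not overlap, MCAO 2 was highest, and the difference was 0.75 ± 0.12 (SE, limma adjusted p = 0.00193). Ddit3 (Entrez Gene 29467), the gene of the pro-apoptotic factor CHOP, had signals of 8.20, 8.71 and 8.77 in MCAO, against 8.15, 8.08, 8.12, 8.08 and 8.20 in Sham. MCAO 4, the lowest of the MCAO rats, fell within the Sham range and the other 6 lay above it. Ddit3 differed by 0.51 ± 0.09 (SE, limma adjusted p = 0.00305).

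Sesn2 and Chac1 varied most widely among the MCAO rats of this group. Sesn2 (Entrez Gene 502988), a stress protein that restrains mTORC1, had signals of 7.80, 8.14 and 8.83 in MCAO, against 7.56, 7.52, 7.65, 7.55 and 7.58 in Sham. MCAO 1 and MCAO 2 stood at 8.74 and 8.83, and the other 5 MCAO rats at 8.22 or less. The difference of 0.66 ± 0.18 (SE) passed the test (limma adjusted p = 0.0155). Chac1 (Entrez Gene 362196), which encodes a glutathione-degrading enzyme, had signals of 8.25, 8.48 and 9.18 in MCAO, against 8.33, 8.28, 8.23, 8.33 and 8.25 in Sham. Its highest values came from the same 2 rats, at 8.81 in MCAO 1 and 9.18 in MCAO 2, while MCAO 4 and MCAO 5 fell inside the Sham range. The difference of 0.28 (95% interval -0.06 to 0.61) did not pass (limma adjusted p = 0.166). Atf5, a related transcription factor, had signals of 8.65, 8.89 and 9.22 in MCAO, against 8.51, 8.64, 8.65, 8.61 and 8.69 in Sham. It rose by 0.32 ± 0.10 (SE, limma adjusted p = 0.0311). Its call was lost without MCAO 5, MCAO 6, Sham 1, Sham 2, Sham 3 or Sham 4 (adjusted p between 0.0521 and 0.0695, differences between 0.27 and 0.32).

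**Figure D2:**
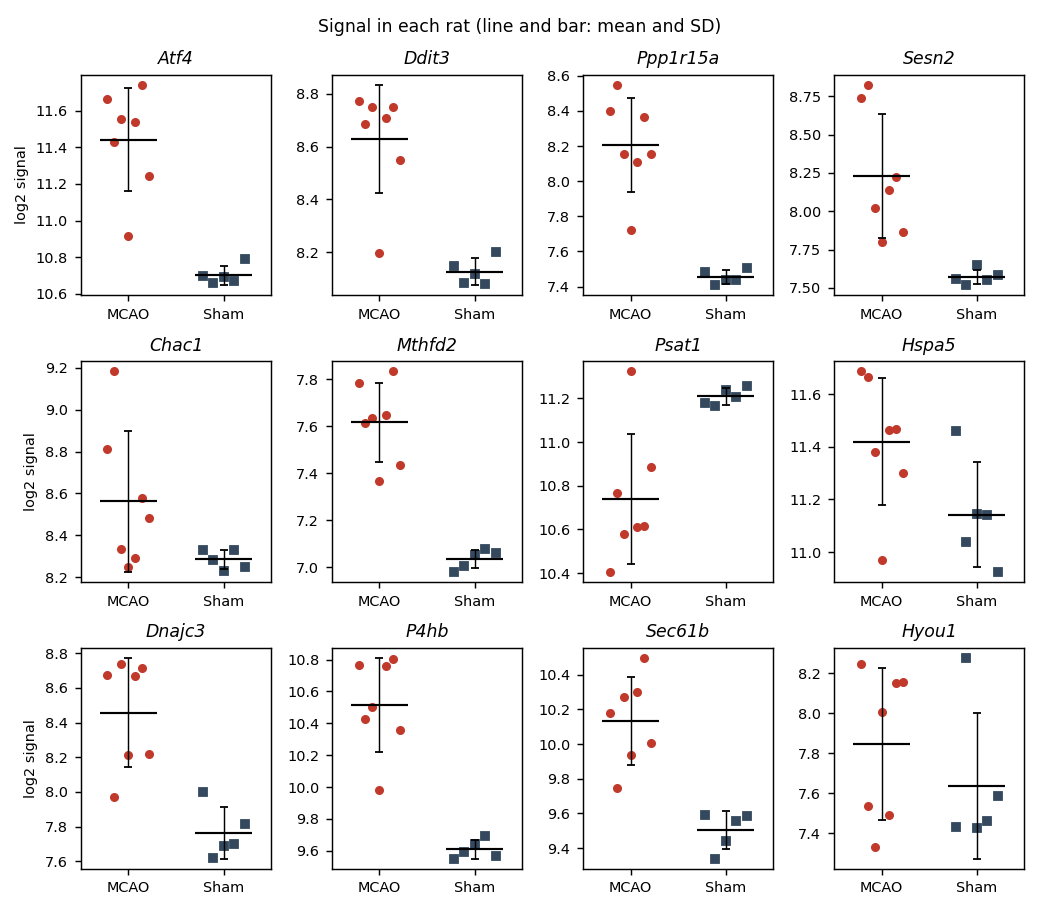
Log2 signal (y axis) of 12 members in each rat, MCAO on the left (7 circles) and Sham on the right (5 squares), with the group mean and SD. Atf4, Ppp1r15a, Sesn2, Mthfd2, P4hb and Sec61b showed no overlap between the groups, and in Chac1 and Sesn2 the 2 highest circles are MCAO 1 and MCAO 2.

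The metabolic genes of the ATF4 arm differed among themselves. Of 5 varying genes, 2 rose, 1 fell and 2 did not pass, or 40% higher and 20% lower, near the 36.9% and 30.7% of all varying probe sets. Mthfd2 (Entrez Gene 680308), a mitochondrial folate enzyme of one-carbon metabolism, had signals of 7.37, 7.63 and 7.83 in MCAO, against 6.98, 7.01, 7.05, 7.08 and 7.06 in Sham. The groups were separate, with a difference of 0.58 ± 0.08 (SE, limma adjusted p = 0.00112). Shmt2, the mitochondrial serine hydroxymethyltransferase gene, had signals of 7.74, 8.32 and 8.74 in MCAO, against 7.71, 7.87, 7.94, 7.91 and 7.92 in Sham. MCAO 4 was the one MCAO rat inside the Sham range. Shmt2 rose by 0.44 ± 0.16 (SE, limma adjusted p = 0.0413), a call that was lost when any array other than MCAO 4 or MCAO 7 was left out (adjusted p between 0.0542 and 0.0882, differences between 0.37 and 0.46).

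The serine synthesis genes went the other way or showed no call. Psat1 (Entrez Gene 293820), the phosphoserine aminotransferase gene, had signals of 10.41, 10.61 and 11.32 in MCAO, against 11.18, 11.17, 11.24, 11.21 and 11.26 in Sham. Of the MCAO rats 6 lay below every Sham rat, while MCAO 4 at 11.32 lay above all of them. Psat1 had a difference of -0.47 ± 0.13 (SE, limma adjusted p = 0.0178). Phgdh, which encodes the first enzyme of the same pathway, had signals of 8.60, 8.80 and 9.08 in MCAO, against 8.86, 8.92, 8.97, 8.87 and 8.96 in Sham. MCAO 4 was again the highest of the 12, and the difference of -0.10 (95% interval -0.25 to 0.05) did not pass (limma adjusted p = 0.257). Without MCAO 4 it was -0.15 and passed (adjusted p = 0.0279). Asns, the asparagine synthetase gene and a standard ATF4 target, had signals of 9.01, 9.31 and 9.38 in MCAO, against 9.06, 9.02, 9.10, 9.19 and 9.002 in Sham. Its difference of 0.17 did not pass (limma adjusted p = 0.101), but did so without MCAO 4 or MCAO 7 (0.21 in both cases, adjusted p = 0.0334 and 0.0354). Psat1 and Phgdh are strongly expressed in astrocytes. Of 9 varying astrocyte markers, 6 were lower in MCAO, 2 did not pass and 1, Gfap, was higher by 1.91. The mean of the 8 markers other than Gfap, as a difference from the Sham mean, was -0.52 to -0.04 in MCAO, highest in MCAO 4, and -0.02 to 0.01 in Sham. Their part in the Psat1 result was not tested.

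Of the sensors, Atf6 alone was read by a varying probe set, whose SD of 0.0127 was close to the 0.01 limit. Its other probe set was near-constant. Eif2ak3, the gene of PERK, was near-constant in the fit with 1 probe set per gene, and Ern1 was not analysed. How far the sensor transcripts changed is therefore not shown. Atf6 was called higher, with no overlap between the groups, but by 0.02 only, a 1.01-fold difference (limma adjusted p = 0.00283). That call was lost after quantile normalization, with equal array medians, with equal 75th percentiles and with near-constant probe sets left out, with differences between 0.01 and 0.02. Xbp1 (Entrez Gene 289754) had signals of 9.98, 10.32 and 10.50 in MCAO, against 10.34, 9.99, 10.07, 10.22 and 10.05 in Sham. The groups overlapped widely, with MCAO 4 lowest of all 12 and Sham 1 higher than 5 MCAO rats. The difference of 0.16 (95% interval -0.03 to 0.36) did not pass (limma adjusted p = 0.162), and it passed without MCAO 4 (0.22, adjusted p = 0.0251). The probe set reads total Xbp1 transcript, so splicing by IRE1 was not measured.

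BiP and its partners rose in part. Of 9 genes 6 rose and 3 did not pass, and in each of the 9 the groups overlapped. Among all varying probe sets 36.9% were called higher, and 18.2% had MCAO above Sham with no overlap. Hspa5 (Entrez Gene 25617), the gene of BiP, the main ER chaperone, had signals of 10.97, 11.46 and 11.69 in MCAO, against 11.46, 11.04, 11.14, 11.14 and 10.92 in Sham. MCAO 3, MCAO 4 and MCAO 7 lay inside the Sham range, and Sham 1 was level with the median of the MCAO rats. The difference of 0.28 (95% interval -0.01 to 0.57) did not pass (limma adjusted p = 0.11), and it passed without MCAO 4 (0.35, adjusted p = 0.0211). Hsp90b1, the ER member of the Hsp90 family, had signals of 11.20, 11.47 and 11.58 in MCAO, against 11.29, 11.07, 11.09, 11.27 and 11.07 in Sham. It rose by 0.29 ± 0.07 (SE, limma adjusted p = 0.00852).

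Among the cofactors of BiP, Dnajc3 (Entrez Gene 63880) had the largest difference. Its product is an ER co-chaperone also known as an inhibitor of PERK. Dnajc3 signals were 7.97, 8.67 and 8.74 in MCAO, against 8.00, 7.62, 7.69, 7.70 and 7.82 in Sham. Only MCAO 2 lay within the Sham range, whose top was Sham 1. The difference was 0.69 ± 0.15 (SE), or 1.62-fold (limma adjusted p = 0.00552). Creld2, a secreted ER stress protein with isomerase activity, rose by 0.47 ± 0.12 (SE, limma adjusted p = 0.0129). Sdf2l1, a stress-induced ER lumen protein, rose by 0.42 ± 0.11 (SE, adjusted p = 0.0119), and Manf, a secreted ER stress protein with neurotrophic activity, rose by 0.38 ± 0.10 (SE, adjusted p = 0.0115). In all 3 genes Sham 1 was the highest Sham rat. Sham 1 stood at 8.20 for Creld2, 8.41 for Sdf2l1 and 9.61 for Manf, where the other Sham rats reached at most 7.91, 8.11 and 9.38. Dnajb11, another co-chaperone of BiP, rose by 0.32 ± 0.10 (SE, adjusted p = 0.0254), a call lost without Sham 2, Sham 4 or Sham 5 (adjusted p between 0.0508 and 0.0590, differences between 0.30 and 0.31).

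The remaining partners of BiP did not pass. Dnajb9, a co-chaperone that keeps IRE1 inactive, had a difference of 0.29 (95% interval 0.02 to 0.56, limma adjusted p = 0.0779), which passed without MCAO 4 (0.36, adjusted p = 0.0132). Hyou1, a nucleotide exchange factor of BiP, had a difference of 0.21 (95% interval -0.27 to 0.69, limma adjusted p = 0.467), with the widest interval of all members. Its signals were 7.33, 8.01 and 8.25 (lowest, median, highest) in MCAO, against 7.43, 8.28, 7.43, 7.46 and 7.59 in Sham. The highest of all 12 values was that of Sham 2.

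Promoter sequences are shown because the ER chaperone genes are textbook targets of a shared promoter element, so that members with and without it can be set beside their differences. RefSeq windows from 250 bases before to 50 bases after each gene's start (build GRCr8) were found for 32 of the 38 genes. Both strands were searched. The ER stress response element (ERSE, the letters CCAAT and CCACG with 9 bases of any kind between them) lay in the windows of 7 members and in 0.0657% of all 33469 windows. A shorter form (ERSE-II, ATTGG and CCACG with any single base between them) lay in those of 3 members and in 0.0508% of all windows. The ERSE matches of these 7 genes are given here in the motif's own direction, with the fixed motif bases in capitals and the spacer in lower case, and the letter runs differ only in the spacer. Hsp90b1 has a match on each strand, and both are shown.
Hspa5: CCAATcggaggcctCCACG
Hsp90b1, first: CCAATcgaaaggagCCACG
Hsp90b1, second: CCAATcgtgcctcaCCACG
Dnajc3: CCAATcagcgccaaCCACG
Creld2: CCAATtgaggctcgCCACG
Canx: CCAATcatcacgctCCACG
Calr: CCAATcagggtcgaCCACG
Xbp1: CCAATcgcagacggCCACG
The match nearest to a start among them was that of Hspa5, whose far end lies 43 bases before it. The farthest was that of Calr, on the minus strand of its window, whose far end lies 232 bases before the start.

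The full windows of Hspa5 (chr3:38452766-38453065, plus strand), which did not pass, and of Dnajc3 (chr15:102432417-102432716, plus strand), which rose, show where the element lies. Capitals mark the ERSE match.
Hspa5 window: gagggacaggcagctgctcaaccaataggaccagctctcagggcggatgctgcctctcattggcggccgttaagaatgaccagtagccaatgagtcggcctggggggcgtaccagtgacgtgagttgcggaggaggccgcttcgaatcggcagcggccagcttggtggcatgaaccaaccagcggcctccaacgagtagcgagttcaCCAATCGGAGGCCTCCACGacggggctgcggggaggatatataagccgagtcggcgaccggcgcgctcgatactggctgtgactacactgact
Dnajc3 window: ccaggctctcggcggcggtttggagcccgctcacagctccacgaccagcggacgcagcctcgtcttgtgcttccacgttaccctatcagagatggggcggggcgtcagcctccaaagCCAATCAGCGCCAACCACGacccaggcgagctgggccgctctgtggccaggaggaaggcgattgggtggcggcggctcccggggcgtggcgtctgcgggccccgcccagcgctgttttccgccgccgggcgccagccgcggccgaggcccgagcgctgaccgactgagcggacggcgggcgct
Of the 10 members with an ERSE or ERSE-II match, 9 varied, and 6 of these rose while Hspa5, Xbp1 and Hyou1 did not pass. Of the 22 members whose window held neither, 20 varied, with 14 higher, 1 lower and 5 that did not pass. In both counts a gene was higher if any of its varying probe sets was called higher. The share of all genes by that rule was not computed. With 1 probe set per gene, 35.2% of all varying genes were higher and 34.1% lower. The largest differences, those of P4hb, Ppp1r15a and Atf4, belonged to genes with neither match in this window. An 8-base core of the element bound by ATF4 dimers (CARE, TTNCATCA) lay in the windows of Chac1, Herpud1 and Trib3, and in 3.98% of all windows. Such matches describe letters in these windows and not binding.

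The lectin chaperones, which retain glycoproteins until they are folded, rose. Calr, the calreticulin gene, had signals of 9.82, 10.06 and 10.16 in MCAO, against 9.84, 9.75, 9.76, 9.86 and 9.69 in Sham. MCAO 4 lay among the Sham rats and the other 6 MCAO rats above them. The difference was 0.28 ± 0.06 (SE, limma adjusted p = 0.00497). Canx, the calnexin gene, had 3 probe sets that disagreed in size. One varied by 0.55 ± 0.10 (SE, adjusted p = 0.00318), another by 0.19 ± 0.06 (SE, adjusted p = 0.0181), and the last was near-constant.

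P4hb (Entrez Gene 25506), which encodes protein disulfide isomerase and is also a subunit of collagen prolyl hydroxylase, had the largest difference of all members. Its signals were 9.98, 10.50 and 10.80 in MCAO, against 9.55, 9.59, 9.64, 9.69 and 9.57 in Sham. Every MCAO rat was above every Sham rat, and MCAO 4 was the nearest to Sham. The difference of 0.90 ± 0.13 (SE) was 1.87-fold (limma adjusted p = 0.00152). The other isomerases differed less. Pdia3, which works with the lectin chaperones, rose by 0.27 ± 0.08 (SE, adjusted p = 0.0225), a call lost without Sham 2 or Sham 3 (0.25 in both cases, adjusted p between 0.0581 and 0.0587). Pdia4 rose by 0.22 ± 0.08 (SE) close to the threshold (adjusted p = 0.0495). Its call was lost without MCAO 1, MCAO 3, MCAO 5, MCAO 6, Sham 2, Sham 3, Sham 4 or Sham 5 (adjusted p between 0.0876 and 0.108, differences between 0.19 and 0.21), with equal array medians or 75th percentiles, without a filter and with robust fitting. Pdia6 signals were 10.59, 10.64 and 10.83 in MCAO, against 9.76, 10.53, 10.51, 10.66 and 10.40 in Sham. Its difference of 0.31 (95% interval 0.01 to 0.61) did not pass (adjusted p = 0.0878), and was 0.16 without Sham 1, whose 9.76 lay below the 10.40 to 10.66 of the other Sham rats.

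**Figure D3:**
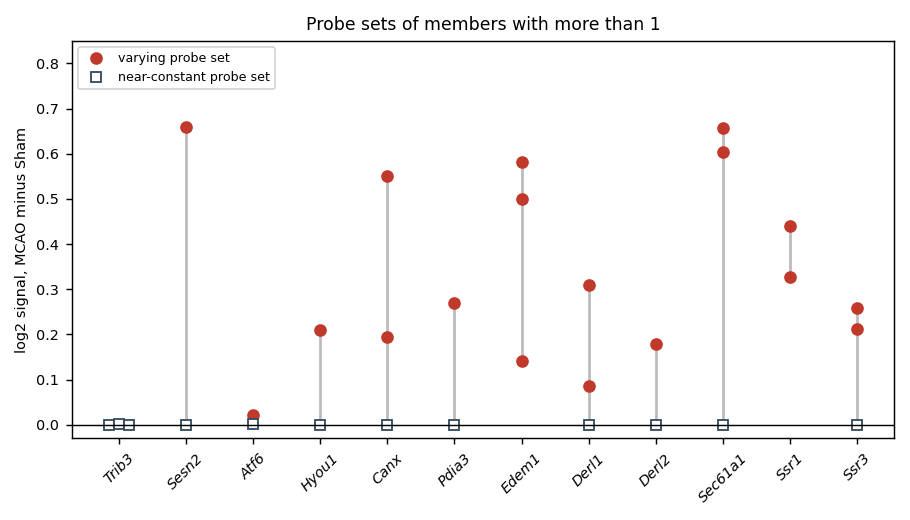
Log2 signal difference, MCAO minus Sham (y axis), of every probe set of the 12 members with more than 1 (x axis). Red points are varying probe sets, open squares near-constant ones, and grey lines join probe sets of 1 gene. The near-constant squares lie at 0 whatever the other probe sets of the gene show, as for Canx and Sec61a1.

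ER-associated degradation, which returns misfolded proteins to the cytosol for destruction, was read by 6 varying probe sets of 3 genes. Edem1, whose product picks out misfolded glycoproteins, rose in the 2 probe sets that passed the filter in both groups. The differences were 0.58 ± 0.08 (SE, limma adjusted p = 0.00115) and 0.14 ± 0.03 (SE, adjusted p = 0.00983). Its other probe set, which passed the filter through MCAO arrays alone, had a difference of 0.50 ± 0.08 (SE). For the first of these the signals were 7.50, 7.75 and 7.91 in MCAO, against 7.09, 7.01, 7.08, 7.14 and 7.24 in Sham, with no overlap. Derl1, part of the exit channel of the ER, rose in one probe set (0.31 ± 0.07, SE, adjusted p = 0.00541). In another it had a difference of 0.09 that did not pass (adjusted p = 0.16), although it passed without MCAO 2 (0.11, adjusted p = 0.0232). Derl2, its relative, had a difference of 0.18 (95% interval 0.02 to 0.34, adjusted p = 0.0645), which passed without MCAO 2 or MCAO 4 (differences between 0.20 and 0.22, adjusted p between 0.0112 and 0.0460).

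The ER translocon rose in all 7 of its varying probe sets, which read 4 genes, where 36.9% of all varying probe sets were higher. Sec61a1 (Entrez Gene 80843), the pore subunit through which new proteins enter the ER, had signals of 8.48, 8.80 and 8.999 in MCAO, against 8.23, 8.12, 8.16, 8.16 and 8.02 in Sham. The groups were separate, at a difference of 0.60 ± 0.09 (SE, limma adjusted p = 0.00152). Another Sec61a1 probe set gave 0.66 ± 0.10 (SE, adjusted p = 0.0018), and its last one was near-constant. Sec61b, the beta subunit, had signals of 9.75, 10.18 and 10.50 in MCAO, against 9.59, 9.34, 9.44, 9.56 and 9.58 in Sham. Again no value overlapped, and the difference was 0.63 ± 0.12 (SE, limma adjusted p = 0.00332). Ssr1 and Ssr3 encode subunits of the translocon-associated TRAP complex. Ssr1 rose by 0.33 ± 0.08 and 0.44 ± 0.09 in its 2 probe sets (SE, adjusted p = 0.0111 and 0.00365). Ssr3 rose by 0.21 ± 0.04 and 0.26 ± 0.07 in its 2 varying probe sets (SE, adjusted p = 0.00382 and 0.0194). The call of the second Ssr3 probe set was lost without Sham 2 or Sham 3 (adjusted p between 0.0529 and 0.0535, differences between 0.22 and 0.23).

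The MCAO rats differed in how far each role departed from Sham. The mean over varying genes was taken per array as a difference from the Sham mean. For the transcription factors and feedback genes of the ATF4 arm it was lowest in MCAO 4 (0.17) and highest in MCAO 2 (0.78), against -0.03 to 0.04 in Sham. For the translocon it was lowest in MCAO 2 (0.25) and highest in MCAO 6 (0.66), against -0.08 to 0.04 in Sham. MCAO 2 was thus first among the MCAO rats in the ATF4 group, last in the degradation group (0.06), and last together with MCAO 4 (0.26) in the translocon. Sham 2, the Sham rat of the same number, was likewise the lowest Sham rat in degradation (-0.07) and in the translocon (-0.08). In the ATF4 group Sham 2 was also lowest (-0.03), unlike MCAO 2. BiP and its cofactors ranged from 0.12 in MCAO 4 to 0.59 in MCAO 1, against -0.08 to 0.17 in Sham, where the top value was that of Sham 1. Of the 31 probe sets called higher, MCAO 4 had the lowest MCAO value in 18 and MCAO 2 in 10, and MCAO 6 had the highest in 17. Among the 24 of these outside the ATF4 arm, Sham 1 was the highest Sham rat in 11 and Sham 2 the lowest in 12. Over all 31, Sham 2 was the lowest Sham rat in 15. Leaving out Sham 1 gave 29 probe sets higher and 1 lower, and leaving out MCAO 4 gave 36 higher and 2 lower, the added lower one being Phgdh.

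**Figure D4:**
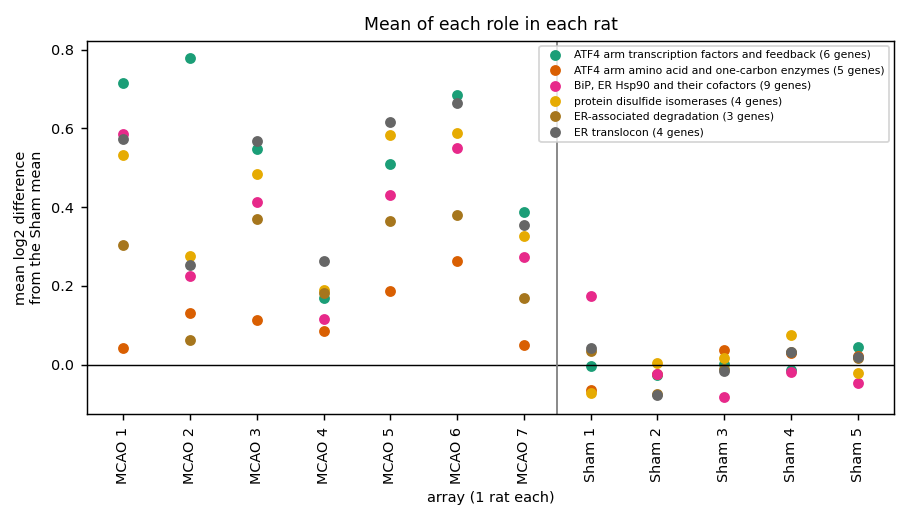
Mean log2 difference from the Sham mean (y axis) over the varying genes of 6 roles in each array (x axis), 7 MCAO rats left of the grey line and 5 Sham rats right of it. The ATF4 transcription factors and feedback genes reach 0.78 in MCAO 2, where the translocon is at 0.25, and BiP and its cofactors in Sham 1 reach 0.17.

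**Figure D5:**
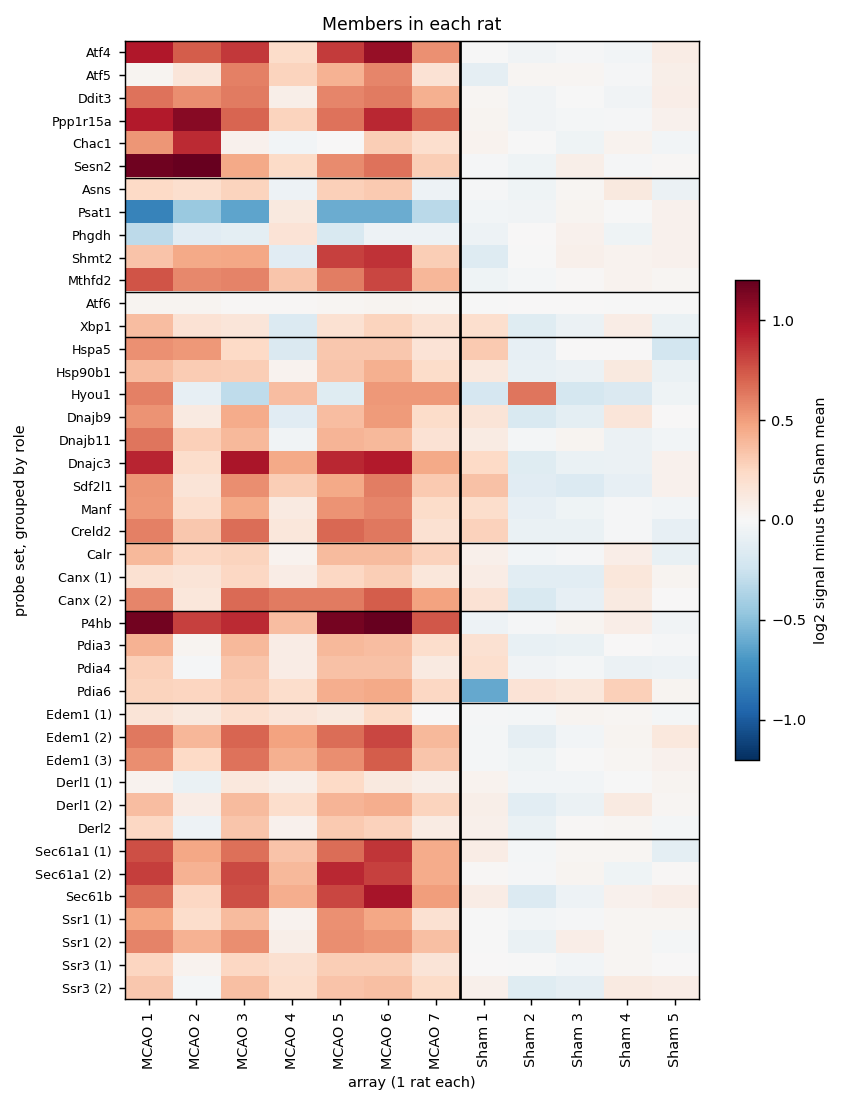
Log2 signal minus the Sham mean of each probe set (colour) for the 42 varying probe sets of the members (rows, grouped by role between black lines) in the 12 arrays (columns, MCAO left of the thick line). Rows for Sesn2 and Chac1 are darkest in MCAO 1 and MCAO 2, the Psat1 row is blue in 6 MCAO rats, and Pdia6 is blue in Sham 1.

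Further genes of the same pathways, 117 in 6 lists, were read in the fit with 1 probe set per gene. Of these 110 were tested and 72 varied, with 46 higher and 4 lower, against 35.2% higher and 34.1% lower among all varying genes. The median difference was 0.21, and 0.02 for all varying genes. Among 21 varying ATF4 and CHOP targets, 13 rose and 1 fell. Atf3 and Gdf15, counted among the 13, passed the filter on low signals through MCAO arrays alone, and without them 11 of 19 rose (57.9%, against 33.9% of all varying genes treated the same way) and 44 of 70 over the 6 lists. Cebpb, a transcription factor that pairs with CHOP, rose by 1.24 ± 0.13 (SE, limma adjusted p = 0.000347), and Slc3a2, the heavy chain of amino acid exchangers, by 0.59 ± 0.05 (SE, adjusted p = 0.000219). The glycine transporter gene Slc6a9 fell by 0.20 (adjusted p = 0.0154). Of 10 varying genes of cytosolic aminoacyl-tRNA synthetases, which charge tRNAs with amino acids, 5 rose and the other 5 did not pass. Mars1 rose by 0.43 ± 0.09 and Tars1 by 0.41 ± 0.10 (SE, adjusted p = 0.00475 and 0.00675).

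Upstream regulators were read by 6 varying genes, of which 3 rose, 1 fell and 2 did not pass. For this and the lists below, 35.2% of all varying genes were higher and 34.1% lower. Eif2s1, the alpha subunit of eIF2 that the stress kinases phosphorylate, rose by 0.65 ± 0.10 (SE, limma adjusted p = 0.0016), and Eif2ak2, the kinase activated by double-stranded RNA, by 0.31 ± 0.05 (SE, adjusted p = 0.00175). Eif2ak4, the kinase that senses uncharged tRNA, fell by 0.32 (adjusted p = 0.0309). The Eif2ak4 call was lost without MCAO 1, MCAO 3, MCAO 5, MCAO 6, MCAO 7, Sham 2, Sham 3 or Sham 4 (adjusted p between 0.0518 and 0.0806, differences between -0.32 and -0.28). Of 13 varying folding and oxidation factors, 7 rose and 1 fell. Serp1, which stabilises membrane proteins under stress, rose by 0.38 ± 0.07 (SE, adjusted p = 0.00291) and the prolyl isomerase gene Ppib by 0.36 ± 0.07 (SE, adjusted p = 0.00255). Ero1b, an oxidase that recharges disulfide isomerases, fell by 0.58 (adjusted p = 0.0034). Among 9 varying degradation factors, 6 rose and 1 fell, with Ube2j1 at 0.39 ± 0.07, Ubxn4 at 0.34 ± 0.05 and Erlec1 at -0.07 ± 0.01 (SE, adjusted p = 0.00302, 0.0016 and 0.000960). The Erlec1 call was lost with near-constant probe sets left out (adjusted p = 0.0545) and with its most variable probe set (-0.12, adjusted p = 0.0779). Of 13 varying translocon, signal peptidase and glycosyltransferase genes 12 rose, among them the signal peptidase gene Sec11a at 0.36 ± 0.07 and the translocon gene Sec63 at 0.19 ± 0.03 (SE, adjusted p = 0.00357 and 0.00251). The remaining gene did not pass.

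Several cell type marker lists differed between the same groups, where 35.2% of all varying genes were higher and 34.1% lower. In whole tissue a change in the number of cells of a type and a change in RNA per cell cannot be told apart. All 15 neuron markers varied, and 9 were lower and 1 higher in MCAO, with mean differences from Sham of -0.48 to -0.15 in MCAO rats and -0.04 to 0.05 in Sham rats. The strongest was the dopamine receptor gene Drd2 (-0.84 ± 0.06, SE). Of 9 varying astrocyte markers, 6 were lower and 1, Gfap, was higher (1.91 ± 0.12, SE), with means of -0.23 to 0.17 in MCAO and -0.02 to 0.02 in Sham. Of 6 varying microglia markers 4 were higher, led by Tyrobp (1.61 ± 0.17, SE), and 2 lower, with means of -0.01 to 0.57 in MCAO and -0.10 to 0.21 in Sham. Of 12 neutrophil and monocyte markers, 9 were on the array and 7 passed the filter on low signals and were higher. Of these Ccr1, Il1r2, S100a8 and S100a9 passed through MCAO arrays alone, so that the filter in part fixed their direction, which leaves 3. Plac8, 1 of the 3 left, was the strongest (1.40 ± 0.17, SE). The means over the 7 were 0.57 to 1.61 in MCAO, against -0.08 to 0.06 in Sham. They include the 4 genes that passed through MCAO arrays alone, so the filter also favoured this separation. Means over the 3 left were not computed. MCAO 2 had the lowest mean of both microglia and neutrophil and monocyte markers among the MCAO rats. Among the Sham rats Sham 2 had the lowest mean of both lists (-0.10 and -0.08). Oligodendrocyte markers were lower in 3 of 7, or 42.9%, led by Ermn (-0.43 ± 0.06, SE), with means of -0.39 to -0.03 in MCAO and -0.22 to 0.15 in Sham. Endothelial and mural markers were higher in 2 of 6, or 33.3%, near the share of all varying genes, with Pecam1 strongest (0.41 ± 0.11, SE), with means of -0.05 to 0.21 in MCAO and -0.21 to 0.11 in Sham. The part of these cell types in the differences of the members was not tested. RNA integrity was read from the beta-actin controls as the log2 difference between their 3' and 5' probe sets, which was 1.27 to 1.47 in 6 MCAO rats and 1.40 to 1.46 in the 5 Sham rats. MCAO 6 was left out of that range because its control values were off from those of the other arrays.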

How the data were processed

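Labelled cRNA had been made from 100 ng of total RNA, per the labels' protocols. The deposited table of the authors holds 31099 probe sets for 12 arrays on a log2 scale, as judged from its range of 5.00 to 14.01. Not given in the sources used here are the log base, the summarization and the normalization, and the values were used as deposited. Of the probe sets, 20832 had 1 gene in the array annotation, 436 had several and were not used, and 9780 had none. All 40 control probe sets that were near-constant in the other arrays were off by more than 0.05 in MCAO 6, whose controls were left out. The gene probe sets of MCAO 6 were kept. The 14 near-constant probe sets of the members had an SD below 0.01 with MCAO 6 included, so its values there were level with the other arrays.

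Probe sets of 1 gene whose signal passed 6.61, the 25th percentile, on 5 arrays or more were fitted with limma 3.58.1 in R 4.3.3 (lmFit, eBayes with trend, two-sided), 17250 by probe set and 12157 by gene, the latter with the probe set of the highest mean. P-values were adjusted after Benjamini and Hochberg over each whole table. Errors are SEs and intervals 95% intervals of that fit. The fit was tested on simulated data with independent noise in each value. That test cannot show how the fit behaves where arrays or probe sets vary together. Each rat is a separate animal.

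Alternatives were other scalings, filters, probe set choices, eBayes settings, weights per array, a replicate block, and leaving out each array. All members are reported, and of the further lists the 2 genes with the strongest statistic in each direction. Of each cell type list the strongest gene is named, and members or arrays singled out otherwise were chosen after their values were seen. Members and lists were chosen with earlier results of these data known.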

Additional observations from a re-analysis of the deposited data

Results flagged for a closer look

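In 84 groups of values, 42 probe sets in MCAO and in Sham, 11 had a highest or lowest rat far from the others by Dixon's criterion, where chance gives about 1 in 20. MCAO 4 was far below the other MCAO rats for Ddit3 (8.20, others 8.55 to 8.77), Xbp1 (9.98, others 10.28 to 10.50) and Calr (9.82, others 10.03 to 10.16). MCAO 2 was far below them for one Canx probe set (9.36, others 9.70 to 9.95) and one Ssr3 probe set (8.80, others 9.03 to 9.18).

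Sham 1 was far above the other Sham rats for Pdia4 (8.86, others 8.58 to 8.63), Manf (9.61, others 9.30 to 9.38) and Creld2 (8.20, others 7.82 to 7.91). It was far below them for Pdia6 (9.76, others 10.40 to 10.66). Sham 2 was far above the others for Hyou1 (8.28, others 7.43 to 7.59), and Sham 5 for Atf4 (10.79, others 10.66 to 10.70).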

How the results depend on the processing

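No varying probe set of the members reversed its direction under any alternative in which it was tested. Of the 32 called, 18 kept direction and call under every alternative in which they were tested, and 14 lost the call at least once. Of the 10 not called, 8 were called at least once. Counts of members called, by gene, were within 1.5 times the reported 22 higher and 1 lower, and by probe set within 1.5 times 31 and 1, apart from those that follow. With the replicate block, which lost 13 of the 32 calls, they were 12 and 0 by gene, 19 and 0 by probe set, and 27 higher among the further pathway genes, with Psat1 still at -0.47 (limma adjusted p = 0.0888). The other calls lost were those of Atf5, Sesn2, Shmt2, Hsp90b1, Dnajb11, Creld2, Calr, Pdia3, Pdia4 and 1 probe set each of Canx, Ssr1 and Ssr3. The block uses 10 arrays, and without the block the same 10 arrays, an alternative added after seeing the data, gave 17 and 1 by gene and 24 and 1 by probe set, with 2 further pathway genes lower. Array weights gave 2 lower by gene and by probe set, and 8 lower among further pathway genes. Leaving out single arrays gave 17 to 27 members higher and 1 to 2 lower by gene, 25 to 36 and 1 to 2 by probe set, and 38 to 51 higher and 3 to 5 lower among further pathway genes, with 2 members lower without MCAO 4. The cause was not tested. Deviations of same-numbered rats from their group means correlated at 0.371, 0.58, -0.331, -0.0392 and 0.193 for numbers 1 to 5. Of these 3 were above 0.1, the limit used here, and 2 of 5 Sham rats, Sham 1 and Sham 2, correlated best with their own number. The labels give only the number, and the rats were not treated as pairs. With so few rats these values do not settle whether some same-numbered rats belong together. Of 22 pathway and marker genes named, 4 missed the threshold under some alternative and 0 reversed. These were Erlec1, Eif2ak4, Mars1 and Slc6a9. Mars1 missed it with the replicate block (limma adjusted p = 0.0627), and Slc6a9 in the same 10 arrays without the block (limma adjusted p = 0.0563). Eif2ak4 missed it in both of these fits (limma adjusted p = 0.0832 and 0.0969), besides the arrays named above. The number of arrays limits the detection of small differences.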

Other observations

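The Hyou1 signals fell into separate ranges that did not follow the operation. MCAO 1, MCAO 4, MCAO 6, MCAO 7 and Sham 2 had 8.25, 8.01, 8.15, 8.16 and 8.28, while the other 7 rats lay between 7.33 and 7.59.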
